A study of Mus musculus with 24 samples.

Results

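The pools compared here are the 8 with the highest and the 8 with the lowest primitive endoderm score among 24 pools of mouse blastocysts, so 16 of 24 pools enter the comparison and the 8 middle pools are described beside them. The score is the mean, over Gata6, Sox7, Pdgfra, Dab2, Lamb1, Lamc1, Col4a1 and Fn1, of each gene's deviation from its own mean over the 24 arrays. Those values chose the pools, so the 8 score genes are given as a description, with no test between high and low pools, and the tests between high and low pools concern other genes on the same arrays. Each array held RNA of pooled frozen expanded blastocysts, 15 embryos to a pool and 20 in condition HC6. The conditions are 6 codes, HC1 to HC6, with 4 pools each, numbered 1 to 4 by the labels. The series title names bisphenol A, a plastic monomer, and activation of membrane estrogen receptors, but the labels read here do not state which treatment a code stands for, which code is the control, or the strain, sex and culture of the embryos. The high pools were 3 of HC1 and 1 each of HC2, HC3, HC4, HC5 and HC6, and the low pools were 1 of HC1, 1 of HC2, 0 of HC4 and 2 each of HC3, HC5 and HC6.

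The primitive endoderm is the epithelium that forms on the cavity side of the inner cell mass before implantation and later lines the yolk sac as visceral and parietal endoderm. In the mouse, FGF4 made by epiblast precursors acts through FGF receptors and ERK on neighbouring cells that keep GATA6, and these then express SOX17, GATA4 and SOX7 in turn while PDGF receptor alpha supports their survival. The layer secretes a basement membrane of laminin, type IV collagen, nidogen and perlecan, and takes up maternal proteins through the receptors cubilin, amnionless and megalin.

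Values are normalized log2 signals, meaning the log2 processed signal of a gene's brightest probe minus the 75th percentile of its array, so a difference of 1 is a 2-fold difference on this scale. For tested genes the brightest probe was taken among those well above background on at least 4 arrays. An array had 38.6% to 49.7% of its spots well above background, the 75th percentile of the processed signal lay between 47.3 and 128, and 0 spots were saturated. Arrays were on 3 slides of 8. The number of arrays limits the precision, and the labels do not say whether pools had different parents, so a p-value here reflects only how pools varied. Blastocyst lineage genes were measured throughout, with Cdx2, Pou5f1, Nanog and Gata6 well above background on 24 of 24 arrays. In pooled embryos, fewer cells of a type and less RNA per cell cannot be told apart.

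The 8 high pools had scores of 0.31 in HC1 replicate 1, 0.28 in HC5 replicate 1, 0.25 in HC4 replicate 1, 0.23 in HC1 replicate 3, 0.17 in HC3 replicate 1, 0.11 in HC2 replicate 1, 0.09 in HC1 replicate 4 and 0.07 in HC6 replicate 1. The 8 low pools had -0.05 in HC1 replicate 2, -0.07 in HC6 replicate 4, -0.08 in HC3 replicate 2, -0.16 in HC6 replicate 3, -0.18 in HC3 replicate 4, -0.20 in HC2 replicate 2, -0.25 in HC5 replicate 4 and -0.64 in HC5 replicate 3. The middle pools filled the span between them without a gap. The last high pool, at 0.07, was 0.0138 above HC4 replicate 4, the first middle pool, and the first low pool was 0.0231 below HC2 replicate 3, the last middle pool. HC5 replicate 3 stood apart at the low end, so the leading list results are also given without it.

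**Figure D1:**
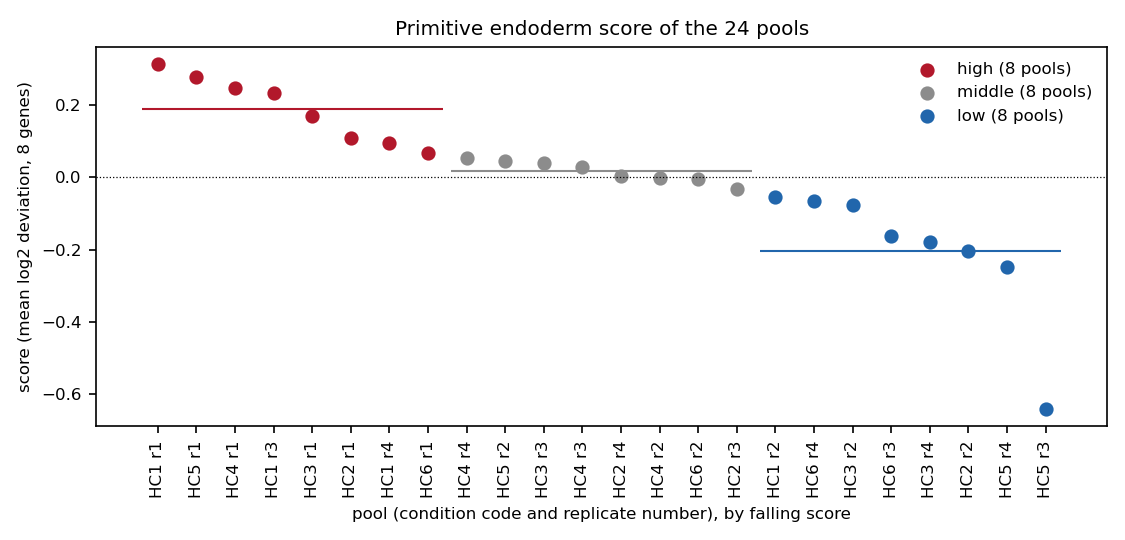
Primitive endoderm score of each of the 24 pools (vertical axis, mean log2 deviation over 8 genes), ordered by falling score, with high pools in red, middle pools in grey and low pools in blue, and a line at each group's mean. High pools lie between 0.07 and 0.31 and low pools between -0.64 and -0.05, with HC5 replicate 3 alone below -0.25.

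Replicate number and slide were unevenly spread over the score. All 6 pools numbered 1 were high, and the other high pools were HC1 replicate 3 and HC1 replicate 4. Scores averaged 0.20 ± 0.10 over pools numbered 1, -0.05 ± 0.09 over those numbered 2, -0.09 ± 0.30 over those numbered 3 and -0.06 ± 0.13 over those numbered 4 (SD, n = 6 each). Slide 1 held 6 high and 2 low pools, slide 2 held 1 high and 2 low pools, and slide 3 held 1 high and 4 low pools. The labels do not state what a shared replicate number stands for, so the number, the slide and the score cannot be fully told apart. By condition, HC1 had a mean score of 0.15 ± 0.16, HC2 of -0.03 ± 0.13, HC3 of -0.01 ± 0.15, HC4 of 0.08 ± 0.11, HC5 of -0.14 ± 0.40 and HC6 of -0.04 ± 0.10 (SD, n = 4 each). These ranges overlapped, and HC5 alone spanned 0.28 to -0.64. Condition is independent of the rule, and no score gene was called when limma compared the 6 conditions by an F-test. The smallest unadjusted p among them was 0.127, for Gata6, and the adjusted p was 1 for each of the 8.

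Gata6, the transcription factor that primitive endoderm precursors keep, did little to place the pools. Its lowest, median and highest signals were 4.67, 5.02 and 5.08 in high pools, against 4.36, 4.97 and 5.19 in low pools. The means were 4.95 ± 0.14 in high pools and 4.89 ± 0.26 in low pools (SD, n = 8 each), and the groups overlapped almost entirely. Fn1, which encodes fibronectin, a matrix glycoprotein bound by integrins, averaged 4.44 ± 0.19 in high pools and 4.46 ± 0.32 in low pools. Across the 24 pools the correlation with the score was 0.15 for Gata6 and 0.08 for Fn1, as a description of genes that are part of that score. The mean of Gata6 thus hardly differed between pools labelled high and low for primitive endoderm, and they are called high-score and low-score pools, or high and low for short, by the rule alone.

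Sox7, a later SOX factor of the primitive endoderm, had 0.57, 0.98 and 1.47 as its lowest, median and highest signals in high pools, against -0.73, 0.16 and 0.92 in low pools. Of the low pools, only HC1 replicate 2 and HC5 replicate 4 lay above the lowest high pool. Pdgfra, the PDGF receptor of the layer, averaged 2.36 ± 0.18 in high pools and 1.96 ± 0.41 in low pools, where HC5 replicate 3 was lowest at 1.08. Dab2, an endocytic adaptor of the endoderm, averaged 4.79 ± 0.11 in high pools and 4.61 ± 0.14 in low pools.

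The laminin and collagen chains of the score follow. Lamb1, the laminin beta 1 chain, had 5.94, 6.07 and 6.17 in high pools, against 5.08, 5.48 and 5.82 in low pools, with no overlap. Lamc1, the laminin gamma 1 chain, averaged 5.17 ± 0.22 in high pools and 4.63 ± 0.31 in low pools. Col4a1, the alpha 1 chain of type IV collagen, averaged 3.11 ± 0.21 in high pools and 2.52 ± 0.31 in low pools (SD, n = 8 each). High pools had between 4 and 8 of the 8 genes above their 24-pool mean, and low pools between 1 and 4.

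**Figure D2:**
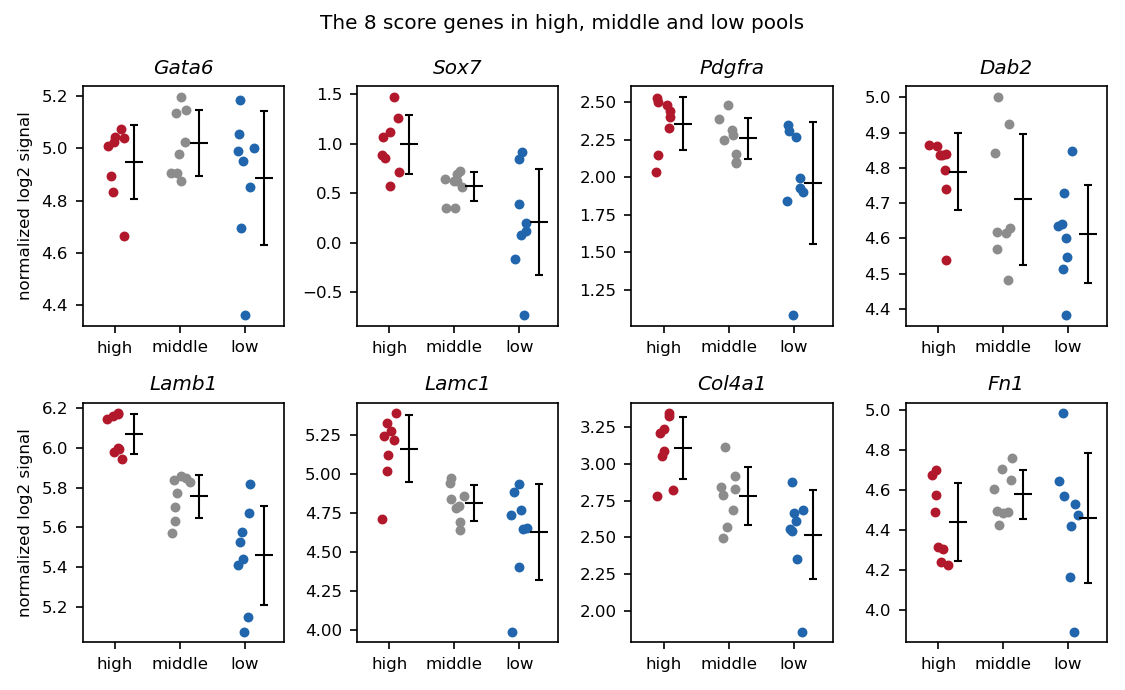
Normalized log2 signal (vertical axes) of the 8 score genes in the 8 high, 8 middle and 8 low pools, with 1 point per pool and the mean and SD beside the points. Lamb1 runs from 5.94 to 6.17 in high pools and from 5.08 to 5.82 in low pools, while Gata6 and Fn1 overlap almost entirely.

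The score genes fell into sets that varied apart from each other. Over the 24 pools, Sox7 correlated with Lamc1 at r = 0.90, with Col4a1 at 0.85 and with Lamb1 at 0.71, and Lamc1 with Col4a1 at 0.92. Gata6 correlated with Fn1 at 0.77, with Lamc1 at -0.31 and with Sox7 at -0.30. These are descriptions over pools that share arrays, slides and a common scaling. The mean deviation of Sox7, Lamb1, Lamc1 and Col4a1 ran from 0.01 to 0.59 in high pools, against -0.96 to -0.07 in low pools. That of Gata6 and Fn1 ran from -0.28 to 0.17 in high pools, against -0.59 to 0.36 in low pools. The low pools reached a low score along different genes. HC5 replicate 3 was at -0.96 for the first set and -0.01 for the second. HC5 replicate 4 was at -0.07 for the first set and -0.59 for the second, with Sox7 and Col4a1 above their means. HC6 replicate 3 had the highest Gata6 and Fn1 mean of all pools, 0.36, beside -0.51 for the first set.

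**Figure D3:**
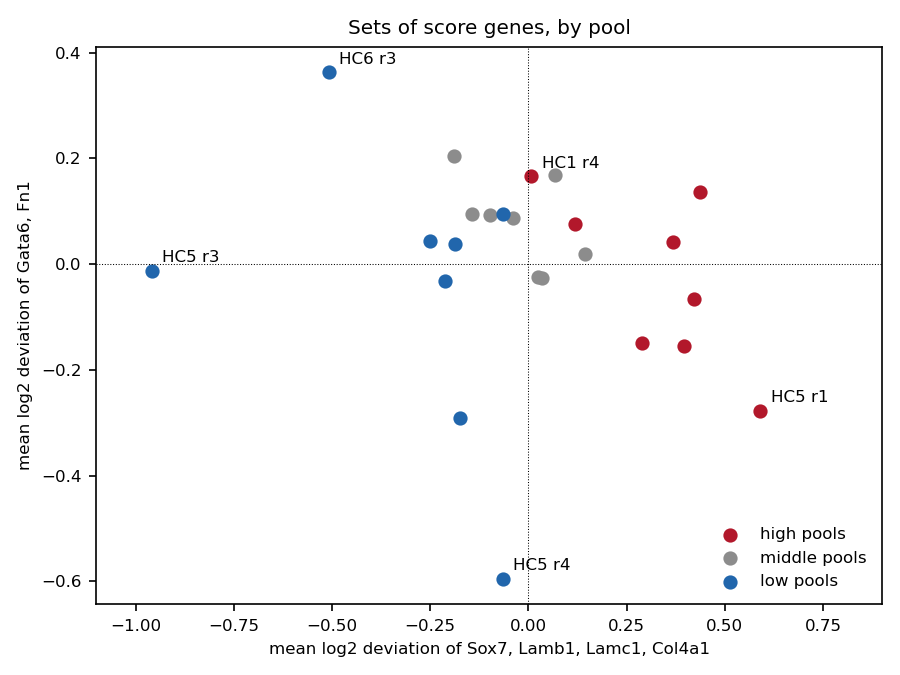
Each of the 24 pools by the mean log2 deviation of Sox7, Lamb1, Lamc1 and Col4a1 (horizontal axis) and of Gata6 and Fn1 (vertical axis), with high pools in red, middle in grey and low in blue. High pools lie to the right, between 0.01 and 0.59, and low pools to the left, between -0.96 and -0.07, while both groups spread over the vertical axis.

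Choosing the pools by 4 of the score genes gave the other 4 genes values that had not chosen those pools. In pools chosen by Lamb1, Lamc1, Col4a1 and Fn1, Sox7 was at 1.00 ± 0.29 in high pools and 0.27 ± 0.55 in low pools. Under the same choice Pdgfra differed by 0.31, Dab2 by 0.10 and Gata6 by 0.01 (log2, high minus low). In pools chosen by Gata6, Sox7, Pdgfra and Dab2, Lamb1 was at 6.03 ± 0.19 in high pools and 5.49 ± 0.28 in low pools (SD, n = 8 each). Col4a1 then differed by 0.44, Lamc1 by 0.42 and Fn1 by -0.03. Gata6 and Fn1 thus stood near 0 when other genes chose the pools. These choices largely repeat the split by the score, and no pool changed sides. The choice by matrix genes shared 6 high and 7 low pools with the score, and the choice by the other genes shared 7 and 6.

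Outside the score, the first question was whether any other gene differed between high and low pools. The limma fit with Benjamini-Hochberg adjustment called 0 of 18440 genes, which is 0% of those tested, and the smallest adjusted p was 0.060. Before adjustment, 2326 genes, or 12.6%, had a limma p under 0.05, against 922 at random. With the replicate number as a block the count was 811, below that number, and all 6 pools numbered 1 were high. Of the 2326 genes without that block, 1817 were higher in high pools, which is 9.85% of the genes tested. The other 509 were lower, which is 2.76%. Other scalings of the same arrays made this split less one-sided. The share of such genes that were higher was 78.1% here, 65.5% after quantile normalization, 65.4% after normexp and quantile normalization, 61.3% in the authors' deposited table and 50.2% with the percentile taken only over probes that every array detected. The median difference of all genes was 0.05 log2, and 61.1% of differences were above 0. In 26 genes, or 0.141% of those tested, every high pool was above every low pool, and in 0 genes, or 0%, every high pool was below.

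The count of 0 depended on how the pools entered the fit. With all 24 arrays in 3 groups 19 genes were called, and with the score as a continuous predictor 394 genes. The continuous fit gives much weight to HC5 replicate 3, at -0.64 with the next pool at -0.25, and was not repeated without it. When pools were chosen by the matrix genes of the score alone, 48 genes were called. Leaving out 1 pool gave 10 calls without HC6 replicate 4, 4 without HC1 replicate 4, 2 each without HC5 replicate 1 and HC3 replicate 4, and 0 for the other 12. Genes below are therefore given as values, with the unadjusted p-value used for counting only. The number of all 18440 genes higher at an unadjusted p under 0.05, 1817 in the reported fit, also moved. It was 1275 without the pools numbered 1, 540 with the replicate number as a block and 1197 after quantile normalization. Leaving out 1 pool gave 1382 to 2363. Counts of list genes under those alternatives stand beside these numbers.

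Most primitive endoderm genes outside the score had a higher mean in high pools. Of 20 list genes, 19 were tested and Rspo3 was not, since none of its probes was well above background on more than 2 arrays. The limma fit called 0 of the 19, against 0% of all genes. At an unadjusted p under 0.05, 13 were higher, against 9.85% of all genes, and 0 were lower, against 2.76%. The median difference of the list was 0.52 log2, beside 0.05 for all genes. Of the 19 differences 18 were above 0, beside 61.1% of all genes. The mean deviation of the list ran from 0.0194 to 0.43 in high pools, against -0.55 to 0.0174 in low pools. Without HC5 replicate 3 the median was 0.42, with the same count of 13. Without the pools numbered 1, in 6 highest against 6 lowest of the other 18, the median was 0.27 and the count was 6. In that alternative 1275 of all 18440 genes were higher at that p. With the replicate number as a block the median was 0.41 and the count 6, beside 540 of all 18440 genes. Some list genes recur in lists below and are no separate evidence there: Col4a2, Nid1 and Sparc among basement membrane genes, Serpinh1 and P4ha2 among collagen folding genes, and Cubn, Amn and Lrp2 among endocytosis genes.

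Transcription factors of the list did not all differ alike. Gata4, a GATA factor that follows GATA6 in the layer, had 1.50, 1.85 and 2.19 as its lowest, median and highest signals in high pools, against 0.64, 1.26 and 1.88 in low pools. Its difference was 0.52 with a 95% interval of 0.21 to 0.83 (limma, adjusted p = 0.212). Most high pools lay above most low pools, with overlap in the middle of the range. Foxa2, a forkhead factor of endoderm, differed by 0.48. Sox17, the SOX factor that marks the committed layer, had 1.39, 1.49 and 1.56 in high pools, against 0.77, 1.34 and 1.75 in low pools. The high pools were held in a narrow band within the range of the low ones, and the difference of 0.15 had an interval of -0.07 to 0.37. Without HC5 replicate 3, the lowest pool, the Sox17 difference was 0.07. Hnf4a differed by 0.19, and Foxq1 by -0.10.

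The endocytic receptors of the layer also differed among themselves. Cubn encodes cubilin, which binds vitamin B12 with intrinsic factor and other ligands, and Amn encodes amnionless, its membrane partner. Cubn had 3.71, 4.10 and 4.39 in high pools, against 2.51, 3.32 and 3.64 in low pools, with no overlap. Its difference was 0.86, with an interval of 0.51 to 1.22 (limma, adjusted p = 0.129). Amn had 2.04, 2.34 and 2.75 in high pools, against 1.07, 1.36 and 2.45 in low pools, so 3 of 8 high pools were above all low pools. Over the 24 pools Cubn and Amn correlated at r = 0.92. Lrp2, which encodes megalin, the receptor that works with cubilin, had 5.37, 5.55 and 5.91 in high pools, against 5.14, 5.54 and 5.82 in low pools. Its difference was 0.07, with an interval of -0.15 to 0.29, and it turned to values from -0.05 to -0.0017 under 6 alternatives, among them quantile normalization.

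Among secreted and membrane genes of the list, Srgn was farthest apart. Srgn encodes serglycin, the core protein of a secretory proteoglycan. It had 2.42, 2.91 and 3.26 in high pools, against 1.12, 1.91 and 2.40 in low pools, with no overlap. The difference was 1.04, with an interval of 0.69 to 1.40 (limma, adjusted p = 0.092). Pth1r, the receptor for parathyroid hormone related peptide, which acts in parietal endoderm, averaged 1.67 ± 0.35 in high pools and 1.03 ± 0.43 in low pools. Aqp8, a water channel, averaged 3.75 ± 0.17 in high pools and 3.39 ± 0.38 in low pools (SD, n = 8 each). Runx1 and Cited1 differed by 0.24 and 0.03.

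The regions upstream of 3 of these genes are shown because the genes stood apart in the same pools, and GATA factors are the best known regulators of the layer. Each is the 250 bases before the annotated start, on the minus strand of GRCm38.p6, from RefSeq. Srgn is from chr10:62527446-62527695, Sparc from chr11:55420081-55420330 and Cubn from chr2:13491877-13492126. No base is in capitals, because no GATA hexamer was found on either strand, the letters searched being AGATAA or else AGATAG or else TGATAA or else TGATAG.
Srgn: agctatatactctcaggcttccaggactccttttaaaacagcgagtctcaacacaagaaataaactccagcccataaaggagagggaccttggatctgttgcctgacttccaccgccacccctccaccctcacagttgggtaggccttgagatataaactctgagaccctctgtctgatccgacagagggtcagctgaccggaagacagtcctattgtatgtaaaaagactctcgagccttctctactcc
Sparc: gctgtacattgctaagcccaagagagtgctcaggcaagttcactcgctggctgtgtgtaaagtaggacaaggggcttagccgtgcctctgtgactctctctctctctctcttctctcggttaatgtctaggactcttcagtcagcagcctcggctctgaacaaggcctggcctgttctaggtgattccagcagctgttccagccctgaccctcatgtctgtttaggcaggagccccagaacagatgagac
Cubn: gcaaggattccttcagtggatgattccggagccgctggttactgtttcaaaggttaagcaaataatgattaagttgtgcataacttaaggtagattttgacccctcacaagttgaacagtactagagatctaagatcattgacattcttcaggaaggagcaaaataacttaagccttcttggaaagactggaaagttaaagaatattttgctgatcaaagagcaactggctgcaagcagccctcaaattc
Over all windows of this length in the RefSeq table, 26.5% of 32851 held such a hexamer, and of windows of the tested genes 18.4% of 14263 did. Of 24 windows of 15 primitive endoderm genes outside the score, 2 held it, or 8.33%, and of 18 windows of 13 basement membrane genes, 2 did, or 11.1%. No match says only that these letters are not in this window.

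Basement membrane components were the next group. Of 21 list genes, 16 were tested, and the limma fit called 0 of them. At an unadjusted p under 0.05, 8 were higher in high pools, against 9.85% of all genes, and 1 was lower, against 2.76%. The median difference was 0.28, beside 0.05 for all genes, and it was 0.24 without HC5 replicate 3 and 0.23 without the pools numbered 1. The list genes Lama2, Lama4, Lamb3, Lamc3 and Npnt were not tested, with probes above background on at most 1 array.

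Lama1, the alpha 1 chain that joins the beta 1 and gamma 1 chains in laminin-111, had 6.79, 7.23 and 7.36 in high pools, against 5.96, 6.38 and 6.76 in low pools. The groups did not overlap, and the difference was 0.75, with an interval of 0.49 to 1.01 (limma, adjusted p = 0.092). Over the 24 pools Lama1 correlated with Lamb1 at r = 0.92 and with Lamc1 at r = 0.89. Lama5, the alpha chain of another laminin of early basement membranes, differed less. It had 5.51, 5.62 and 5.72 in high pools, against 4.99, 5.35 and 5.47 in low pools, again with no overlap. Lama3, an alpha chain of epithelial laminin, went the other way, at -2.95 ± 0.45 in high pools and -2.19 ± 0.47 in low pools. Only 2 of 8 high arrays and 4 of 8 low arrays had its probe well above background, so its difference of -0.76 is partly one between background signals.

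Col4a2, the alpha 2 chain that pairs with alpha 1 in type IV collagen, had 1.88, 2.32 and 2.55 in high pools, against 0.73, 1.65 and 2.26 in low pools. Its difference was 0.67, with an interval of 0.30 to 1.03, and over 24 pools it correlated with Col4a1 at r = 0.96. Sparc, a collagen-binding glycoprotein that parietal endoderm secretes in quantity, had 8.14, 8.50 and 8.79 in high pools, against 7.62, 7.98 and 8.21 in low pools. All high pools but HC1 replicate 4 were above all low pools, and the difference was 0.54, with an interval of 0.33 to 0.74 (limma, adjusted p = 0.0943). Pxdn, a peroxidase that cross-links type IV collagen, differed by 0.53. The nidogens bridge laminin and collagen, and Nid2 differed by 0.55 and Nid1 by 0.26. Nid1 averaged 4.66 ± 0.16 in high pools and 4.40 ± 0.26 in low pools, with wide overlap. Hspg2, which encodes perlecan, averaged 2.64 ± 0.26 in high pools and 2.40 ± 0.65 in low pools, where HC5 replicate 4 was at 3.94, and its difference was -0.0032 without the pools numbered 1. Agrn, the proteoglycan agrin, differed by 0.24, and Col18a1, the source of endostatin, by 0.40 with a p of 0.14 before adjustment in the limma fit.

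**Figure D4:**
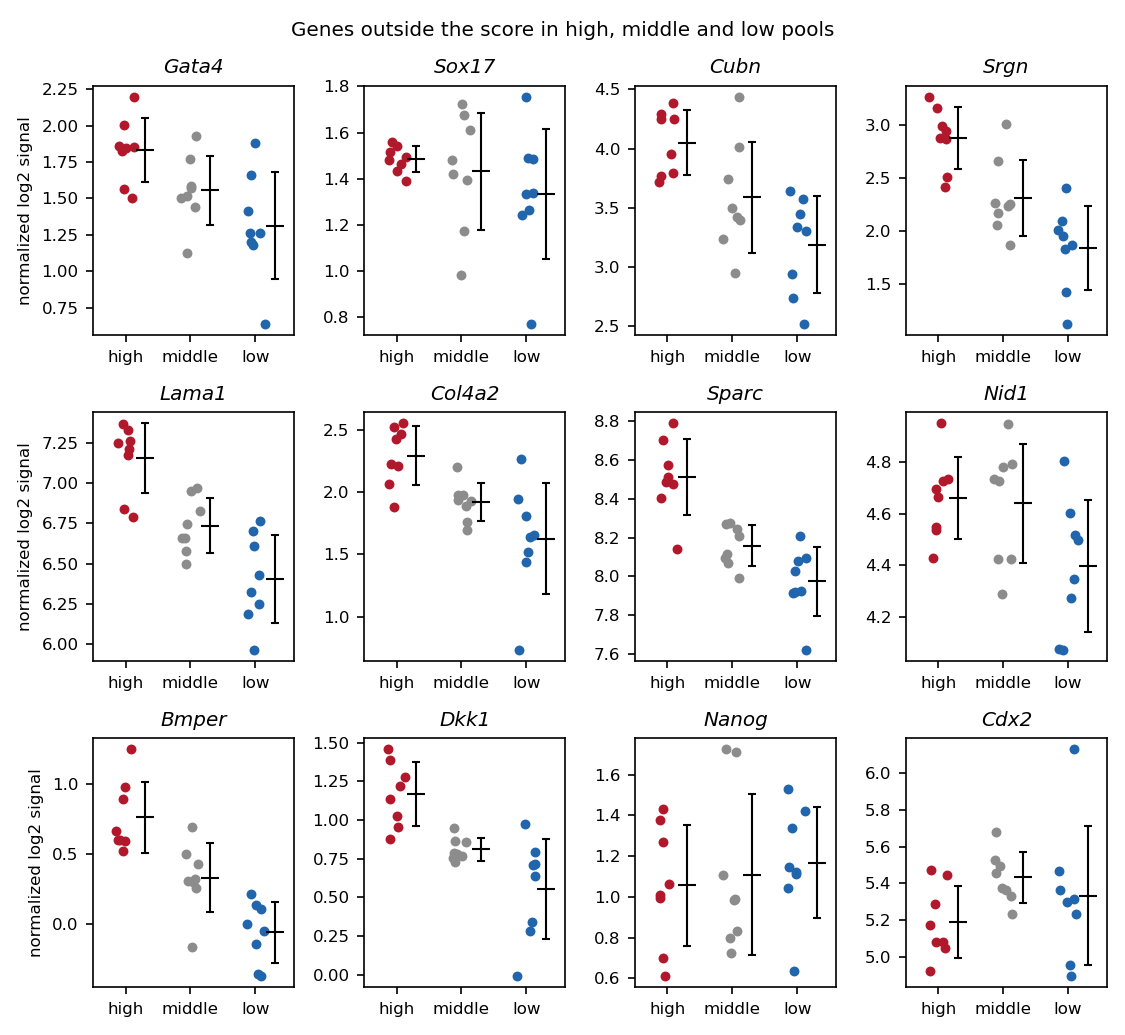
Normalized log2 signal (vertical axes) of 12 genes outside the score in the 8 high, 8 middle and 8 low pools, with 1 point per pool and the mean and SD beside the points. Srgn, Cubn, Lama1 and Bmper do not overlap between high and low pools, whereas Sox17, Nid1, Nanog and Cdx2 do.

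Enzymes and chaperones that fold collagen come next. Of 18 tested genes of this list, 8 were higher in high pools at an unadjusted p under 0.05, against 9.85% of all genes, 0 were lower, and 0 were called by limma. The median difference was 0.18, the count was 5 without HC3 replicate 1 or without HC1 replicate 2, and without the pools numbered 1 the median was 0.11 and the count 2. Serpinh1, the endoplasmic reticulum chaperone HSP47 that binds procollagen, had 4.42, 4.64 and 5.17 in high pools, against 3.45, 4.09 and 4.68 in low pools. P4ha2, a catalytic subunit of prolyl 4-hydroxylase, averaged 2.88 ± 0.22 in high pools and 2.28 ± 0.43 in low pools. Colgalt1, which adds galactose to hydroxylysine of collagen, averaged 4.85 ± 0.05 in high pools and 4.58 ± 0.16 in low pools (SD, n = 8 each). Plod3, a lysyl hydroxylase, differed by 0.35, Plod2 by 0.24 and Creb3l2, a transcription factor of secretory load, by 0.45. Bmp1, the procollagen C-proteinase, differed by -0.23 and P4hb, the beta subunit of prolyl 4-hydroxylase, by -0.04.

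Receptors for the matrix follow. Of 17 tested receptors and adhesion adaptors, 3 were higher at an unadjusted p under 0.05, against 9.85% of all genes, and 0 were lower, with a median difference of 0.05. Leaving out 1 pool moved this median between 0.03, without HC2 replicate 1, and 0.15, without HC1 replicate 3. It was 0.16 with condition as a block and -0.01 with the percentile taken only over probes that every array detected. Dag1, which encodes dystroglycan, a laminin receptor, averaged 5.99 ± 0.12 in high pools and 5.70 ± 0.22 in low pools. Tln1, which encodes talin, differed by 0.25 and Itgav, an integrin chain, by 0.24. Itgb1, the integrin beta 1 chain common to most laminin receptors, differed by 0.04 and Itga6, its laminin-binding partner, by -0.09. Pdgfa, the ligand of Pdgfra, averaged 6.32 ± 0.11 in high pools and 6.13 ± 0.13 in low pools, and the other 4 tested genes of the PDGF list had p-values of at least 0.22 before adjustment in the limma fit.

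The FGF and ERK pathway directs cells to the primitive endoderm. All 22 list genes were tested, 9 were higher in high pools at an unadjusted p under 0.05, against 9.85% of all genes, 0 were lower and 0 were called by limma. The median difference was 0.16, beside 0.05 for all genes, and 20 of 22 differences were above 0, beside 61.1% of all genes. The median was 0.15 without HC5 replicate 3, and without the pools numbered 1 the median was 0.18 with a count of 4. Over the alternatives the median ran from 0.08 to 0.21 and the count from 2 to 10.

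Of the ligands, Fgf4, the signal from epiblast precursors and also in the epiblast list, had 2.57, 2.80 and 3.02 in high pools, against 1.99, 2.59 and 2.68 in low pools. Fgf3, a ligand expressed in extraembryonic endoderm, had 0.77, 1.55 and 1.94 in high pools, against 0.03, 0.72 and 1.35 in low pools, and its difference was 0.81 with an interval of 0.41 to 1.21 (limma, adjusted p = 0.162). Of the receptors, Fgfr3 differed by 0.52 and Fgfr4 by 0.18. Fgfr1 and Fgfr2, the receptors that carry the FGF4 signal in the mouse blastocyst, differed by 0.12 and 0.07. Grb2, the adaptor without which the primitive endoderm does not form in the mouse, had 2.88, 2.96 and 3.12 in high pools, against 2.61, 2.77 and 2.87 in low pools, with no overlap. The Grb2 difference was 0.22, with an interval of 0.09 to 0.35 (limma, adjusted p = 0.205). Shc1, another adaptor, differed by 0.26. Feedback genes were mixed, with Spred1 at 0.60, Dusp6 at 0.16, Spry1 at 0.09 and Spry2 at -0.11.

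Among all genes, the smallest p-value belonged to Bmper, which encodes a secreted protein that binds bone morphogenetic proteins. Bmper had 0.52, 0.63 and 1.25 in high pools, against -0.38, -0.03 and 0.21 in low pools, with no overlap, and middle pools lay between -0.17 and 0.70. Its difference was 0.82, with an interval of 0.57 to 1.07 (limma, adjusted p = 0.060). Over the alternatives its high minus low difference ran from 0.53 to 0.95 and its adjusted p in limma from 0.000288 to 1, and it was called in 10 of 38, among them those without HC5 replicate 1, HC6 replicate 4, HC1 replicate 4 or HC3 replicate 4. Slc7a1, a carrier of arginine and lysine, had 4.76, 5.15 and 5.23 in high pools, against 3.95, 4.30 and 4.74 in low pools, with no overlap and a difference of 0.72 (limma, adjusted p = 0.092). Slc7a7, another amino acid carrier, averaged 4.93 ± 0.09 in high pools and 4.59 ± 0.13 in low pools, also with no overlap.

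Transcription factors among the 20 genes of smallest p were Etv6, an ETS repressor, and Mycn. Etv6 had 1.34, 1.60 and 1.78 in high pools, against 0.73, 0.95 and 1.35 in low pools. Mycn had 5.34, 5.42 and 5.52 in high pools, against 4.57, 5.01 and 5.19 in low pools, with no overlap. Gdf15, a secreted stress-responsive factor of the TGF-beta family, averaged 1.52 ± 0.20 in high pools and 0.91 ± 0.22 in low pools (SD, n = 8 each). Mvb12b, a subunit of the ESCRT-I complex that sorts endosomal cargo, differed by 1.23 and Bace2, an aspartyl protease, by 0.93. Trim44 differed by 0.41, Bend5 by 0.58, Mfsd12 by 0.34 and Tacc1 by 0.29. Soat2, a cholesterol acyltransferase, differed by 1.03 and Cnpy1 by 0.76, with probes well above background on 6 and 7 of 8 low arrays. Casq2, which encodes calsequestrin, differed by 1.39, but 3 of 8 high arrays and 1 of 8 low arrays had its probe well above background. Slc13a1, a sulfate carrier, was the only one of the 20 that was lower, at -2.65 ± 0.21 in high pools and -2.02 ± 0.31 in low pools, where 3 of 8 high and 7 of 8 low arrays had its probe well above background.

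The genes most like the score over the 24 pools were named by their Pearson correlation with it, as a description. Dkk1, a secreted WNT inhibitor of the visceral endoderm, had r = 0.88, with 0.87, 1.18 and 1.46 in high pools, against -0.01, 0.68 and 0.97 in low pools. F2r, the thrombin receptor, had r = 0.88, with 2.20, 2.68 and 3.05 in high pools, against 1.48, 2.17 and 2.45 in low pools. Lama1 had r = 0.87, Mvb12b 0.87, Sparc 0.86, Bmper 0.85 and Grb2 0.85. Lifr, the receptor for leukemia inhibitory factor, Plscr1, a phospholipid scramblase, and Ndufs4, a subunit of mitochondrial complex I, had r = 0.84 each. All of these are correlations over pools that share scaling and slides, and they were not computed again without HC5 replicate 3, the pool of lowest score.

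The other lineages of the blastocyst were examined in the same way. Of 23 tested epiblast and pluripotency genes, 6 were higher at an unadjusted p under 0.05, against 9.85% of all genes, and 1 was lower, against 2.76%, with a median difference of 0.16. The count was 3 without HC3 replicate 1, HC4 replicate 1, HC5 replicate 1 or HC1 replicate 2, and without the pools numbered 1 it was 0 with a median of 0.10. Nanog, the epiblast factor, had 0.61, 1.04 and 1.43 in high pools, against 0.64, 1.13 and 1.53 in low pools, with a difference of -0.11 that turned to 0.05 when Gata6, Sox7, Pdgfra and Dab2 chose the pools and to 0.04 with the replicate number as a block. Pou5f1, the pluripotency factor OCT4, averaged 3.52 ± 0.23 in high pools and 3.68 ± 0.30 in low pools. Zfp42, which encodes REX1, averaged 5.73 ± 0.05 in high pools and 5.53 ± 0.14 in low pools, Sox2 differed by 0.32, and Nodal, a secreted TGF-beta family signal, by 0.54. Dppa3, the maternal and naive state factor STELLA, was the member that was lower, with 4.39, 4.83 and 5.14 in high pools, against 4.93, 5.14 and 5.59 in low pools (limma, adjusted p = 0.227).

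Of 22 tested trophectoderm genes, 5 were higher at an unadjusted p under 0.05, against 9.85% of all genes, and 1 was lower, against 2.76%, with a median difference of 0.13. Tead4 is also in the YAP list. The count ran from 3 without HC4 replicate 1, HC6 replicate 3 or HC5 replicate 4 to 8 without HC6 replicate 4. Tead4, the TEAD factor that acts with YAP to start the trophectoderm, had 4.05, 4.12 and 4.26 in high pools, against 3.70, 3.92 and 4.03 in low pools, with no overlap and a difference of 0.23. Cdx2, the caudal factor of the trophectoderm, averaged 5.19 ± 0.20 in high pools and 5.33 ± 0.38 in low pools, and its difference of -0.14 turned to 0.07 with the replicate number as a block and to 0.11 without the pools numbered 1. Eomes differed by 0.27 and Elf5 by 0.26, both factors of trophoblast stem cells. The keratins Krt8 and Krt18 differed by -0.08 and 0.02.

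Energy and stress lists did not all lie on the same side of 0. All 18 tested genes of oxidative phosphorylation had a difference above 0, beside 61.1% of all genes, with a median of 0.12, and 6 were higher at an unadjusted p under 0.05, against 9.85% of all genes. After quantile normalization 15 of the 18 were above 0, beside 53.9% of all genes, and 1 was higher at that p, beside 1197 of all 18440 genes. Atp5j, a subunit of the ATP synthase, averaged 6.45 ± 0.06 in high pools and 6.18 ± 0.13 in low pools (SD, n = 8 each). Of 19 tested genes of glycolysis and the hypoxia response, 8 were higher, against 9.85% of all genes, with a median of 0.15, and the count was 4 after quantile normalization and 5 without HC3 replicate 1, HC4 replicate 1, HC6 replicate 3 or HC1 replicate 3. Ldha, lactate dehydrogenase A, averaged 5.42 ± 0.26 in high pools and 5.01 ± 0.33 in low pools. Of 19 genes of the unfolded protein response, 6 were higher, against 9.85% of all genes, with a median of 0.10, and they were the amino acid response genes Atf4 at 0.30, Asns at 0.39, Chac1 at 0.53 and Trib3 at 0.60, with Herpud1 at 0.48 and Xbp1 at 0.22. The chaperone Hspa5 of the same list differed by 0.13, Calr by -0.08 and Hsp90b1 by 0.01. Of 22 sterol synthesis genes, 0 were higher and 1 was lower, against 2.76% of all genes, Fdps, which encodes farnesyl diphosphate synthase, at -0.26. With the replicate number as a block, the counts of oxidative phosphorylation, glycolysis and unfolded protein response genes were 0 each. In that fit only 540 of all 18440 genes were higher at an unadjusted p under 0.05. Of 12 heat shock genes, 5 had a difference above 0, beside 61.1% of all genes, with a median of -0.04. At an unadjusted p under 0.05, 1 of them was higher, against 9.85% of all genes. Of 20 ribosomal protein genes 2 were higher, against 9.85% of all genes, with 0 to 4 when 1 pool was left out. The cell cycle list had 2 of 19 higher, against 9.85% of all genes. Its median was 0.04, which ran from -0.02 to 0.18 over the alternatives.

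**Figure D5:**
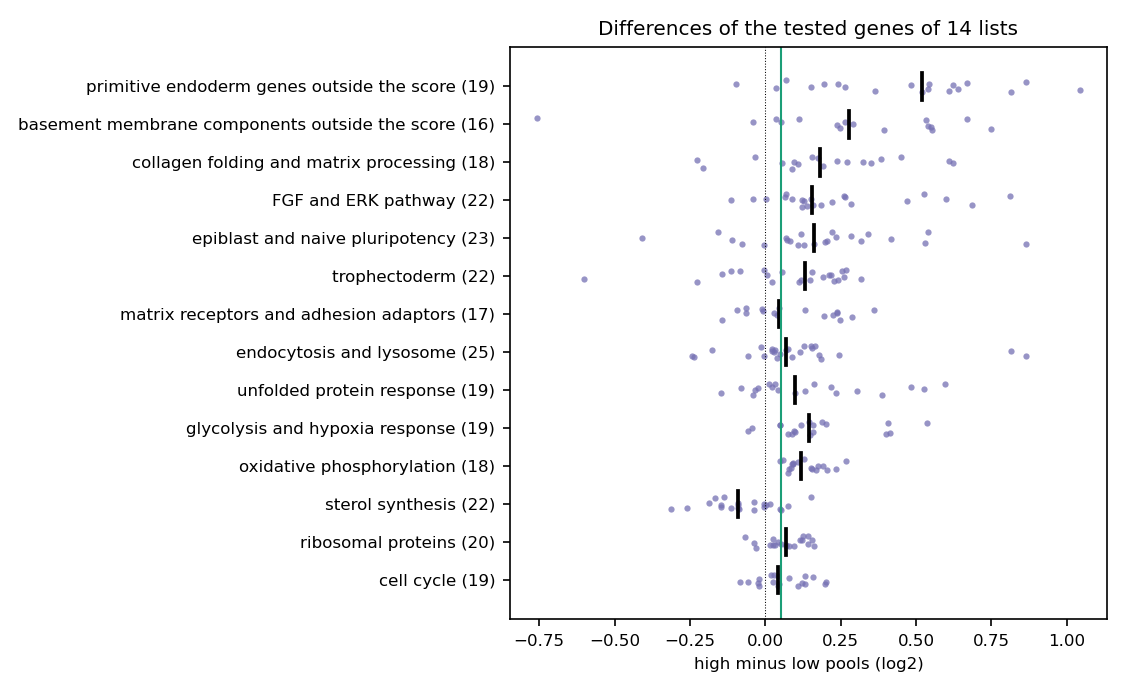
High minus low difference (horizontal axis, log2) of each tested gene of 14 lists, with 1 point per gene, the number tested in brackets, a black bar at the list's median and a green line at the median of all 18440 genes, 0.05. The primitive endoderm list has the highest median of the 14, 0.52, followed by the basement membrane list at 0.28.

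Later endoderm products and the endocytic machinery at large were examined too. Of 20 secreted proteins of visceral endoderm, 11 were not tested, and Afp, Apob, Apoa4, Rbp4 and Fgb were well above background on 0 arrays. Among the 9 tested, Cpn1, a carboxypeptidase subunit, differed by 0.44 and Spink1, a secreted protease inhibitor, by 1.13 with an interval of 0.13 to 2.13, while Apoe differed by 0.06. Of 25 endocytosis and lysosome genes, 3 were higher at an unadjusted p under 0.05, against 9.85% of all genes, and 1 was lower, against 2.76%, with a median of 0.07. The 3 were Cubn, Amn and Ap2m1, an adaptor subunit of clathrin coats, and the 1 was Ctsd, the lysosomal protease cathepsin D, at -0.24. The count was 6 without HC6 replicate 1 or without HC5 replicate 4, and 5 without HC3 replicate 2. Of 15 tested BMP and SMAD genes, 3 were higher at an unadjusted p under 0.05, against 9.85% of all genes. In the same list 1 was lower, against 2.76%, and the median was 0.09. Bmp2 differed by 1.21, with its probe well above background on 4 of 8 high and 0 of 8 low arrays. Id1, a target of BMP signalling, differed by 0.63 and Bmp7 by -0.62, with the Bmp7 probe well above background on 4 of 8 high and 7 of 8 low arrays. Of 15 tested YAP and Hippo genes, 4 were higher at that p, against 9.85% of all genes, and 1 was lower, against 2.76%. Their median was 0.14, and 13 differences were above 0, beside 61.1% of all genes. Yap1 differed by 0.25. Ankrd1, a YAP target, differed by 1.04, with its probe well above background on 2 of 8 high and 1 of 8 low arrays. Ccn2, another YAP target, was the 1 that was lower. It averaged 0.20 ± 0.12 in high pools and 0.84 ± 0.75 in low pools, where HC2 replicate 2 was at 2.53.

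Markers of cells that a flushed embryo could carry were mostly at background. Of 15 cumulus and granulosa genes 4 were tested, of 14 stroma genes 6, of 8 endothelial genes 2, of 11 blood genes 5 and of 7 oviduct genes 3. The defining genes Fshr, Inha, Amh, Col1a2, Dcn, Kdr, Hbb-bt and Foxj1 were well above background on 0 arrays. The mean deviation of the cumulus and granulosa list ran from -0.65 to 0.24 in high pools, against -0.70 to 1.1 in low pools, and that of the stroma list from -0.46 to 0.52, against -0.40 to 0.43. That of the endothelial list ran from -0.66 to 0.40 in high pools, against -0.19 to 0.45 in low pools, that of the blood list from -0.29 to 0.28, against -0.36 to 0.44, and that of the oviduct list from -0.39 to 0.28, against -0.69 to 0.18. Single genes of these lists were Amhr2 at -0.50, Thy1 at -0.56, Pecam1 at -0.54 and Hba-a1 at -0.71. Each was lower in high pools at an unadjusted p under 0.05, and Wfdc2 was at 0.24. The Pecam1 probe was well above background on 1 of 8 high and 4 of 8 low arrays, and the Hba-a1 probe on 5 and 7. The part of such cells in the differences above was not tested.

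Genes of the 2-cell stage had a median difference of -1.05, which was -0.24 without HC6 replicate 3 and ran from -1.62 to 0.20 over the alternatives. Only Sp110 and Zfp352 of its 10 tested genes were well above background on all 24 arrays, at 0.10 and 0.02, and most of the others belong to near-identical families. Of 8 tested estrogen receptor and target genes, 1 was higher at an unadjusted p under 0.05, against 9.85% of all genes, the orphan receptor Esrra at 0.26, and Esr2, estrogen receptor beta, differed by -0.01. Of 5 tested sex-linked genes, 2 had a difference above 0, beside 61.1% of all genes, with a median of -0.03. At an unadjusted p under 0.05, 0 were higher, against 9.85% of all genes, and 0 were lower, against 2.76%. Xist, the noncoding RNA of X inactivation, had -1.35, 0.80 and 1.22 in high pools, against -0.45, 1.22 and 1.44 in low pools. Its difference was -0.45, with an interval of -1.18 to 0.28, and 0 of 8 high pools lay above the median of the low pools. Eif2s3y, a Y-linked gene, differed by 0.44. The sex of the embryos was not tested.

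Array-wide measures were also compared between high and low pools. The log2 of the 75th percentile averaged 6.47 ± 0.37 in high pools and 6.25 ± 0.47 in low pools (SD, n = 8 each), a difference of 0.22 with p = 0.318 in an exact two-sided permutation test over 12870 choices. The share of spots well above background averaged 43.9% ± 3.66 in high pools and 44.6% ± 3.0 in low pools, with p = 0.658 in the same exact permutation test. When the matrix genes of the score chose the pools, the percentile differed by 0.43 log2, with p = 0.0420 in the same exact test.

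Within slides the differences of the leading genes kept their sign. No test was run within slides, and slides 2 and 3 held 1 high pool each. On slide 1 all 6 high pools were numbered 1 and the 2 low pools were numbered 2, so score and number cannot be told apart there. Within slide 1, with 6 high and 2 low pools, the differences were 0.89 for Bmper, 1.18 for Srgn and 0.73 for Lama1. They were 0.66 for Sparc, 1.13 for Cubn, 0.63 for Col4a2 and 0.35 for Gata4. Within slide 2, with 1 high and 2 low pools, they were 1.00 for Bmper, 1.28 for Srgn, 0.96 for Lama1, 0.41 for Sparc, 1.20 for Cubn, 0.99 for Col4a2 and 0.62 for Gata4. Within slide 3, with 1 high and 4 low pools, they were 0.64 for Bmper, 0.59 for Srgn, 0.37 for Lama1, 0.19 for Sparc, 0.45 for Cubn, 0.41 for Col4a2 and 0.26 for Gata4. The high pool of slide 3 is HC1 replicate 4, the high pool in which the set of Sox7, Lamb1, Lamc1 and Col4a1 was lowest, at 0.01. The median of the primitive endoderm list was 0.47 within slide 1 and 0.42 with slide as a block. Within number 4, with 1 high and 3 low pools, the differences were 0.53 for Bmper, 0.36 for Srgn and 0.22 for Lama1. Cubn was at 0.45, Col4a2 at 0.11, Sparc at 0.08 and Gata4 at 0.06, with Nid1 at -0.0079 and Sox17 at -0.09. Within number 3, with 1 high and 2 low pools, these genes lay between 0.53 for Nid1 and 1.66 for Srgn. Gata4 differed by -0.09 within HC2, with 1 pool on each side, and by 0.32 to 0.94 within the other conditions compared.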

How the data were processed

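RNA of 24 blastocyst pools was hybridised to 1-colour Agilent arrays. The deposited scanner files hold spot intensity and, per the file headers, were made with version 10.10.1.1 of Agilent Feature Extraction, whose processed signal is already background-subtracted. The authors also deposited a log2 table of 27101 probes with 443 missing values and column medians between 7.00 and 7.01. All 24 columns matched their own array better than any other, with r from 0.834 to 0.888, and the table's centring is not given in the sources used here. It served as an alternative.

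Spots that are controls or carry an outlier flag were dropped, and the log2 processed signal was set against the 75th percentile of its array. Of each gene's probes well above background on at least 4 arrays, the brightest was kept. A gene was tested where that probe had at least 6 values in each group. Score genes used their brightest probe without this filter. Of the array's gene probes, 41700 were named by symbol, 520 by synonym, 1518 by accession and 12867 kept the file's name, with RefSeq names. The 8 highest and 8 lowest pools were compared with limma 3.58.1 in R 4.3.3 (lmFit, eBayes, Benjamini-Hochberg, adjusted p under 0.05), and conditions with its F-test. Figures and tables used Python 3.11.15, numpy 2.4.6, pandas 2.3.3 and matplotlib 3.10.9. The code was tested on simulated data.

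The pools, score genes and 29 gene lists were chosen with earlier results of these data known. Named genes are the score genes, the 20 of smallest p since none was called, up to 5 members of smallest p in each list, 12 lineage and matrix genes always given, and the 10 most like the score. Features known only by an accession, probe or clone name and members of near-identical families were not named under this rule. Other list members named in the text were chosen after their values were seen, and some genes are not reported here. Alternatives covered scaling, background correction, probe filters, the choice of pools, blocks for slide, condition and replicate number, and leaving out each pool. Array number limits the precision, with a median standard error of 0.135 log2, and 87.1% of genes had a 95% interval within 2-fold.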

Additional observations from a re-analysis of the deposited data

Results flagged for a closer look

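Of 266 sets of 4 or 8 pools examined, 16 had a pool set apart from the rest by Dixon's test, where chance sets apart about 1 in 20. The values are normalized log2 signals, and their cause was not tested.

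The score genes were not examined within high or low pools, since their values chose them. In high pools, Ldha was lowest in HC1 replicate 3 at 4.85, and Xist in HC1 replicate 1 at -1.35. Bmp2, a BMP ligand, was highest in HC3 replicate 1 at -0.51, and Insig1, a sterol sensor, in HC1 replicate 4 at 0.17.

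In low pools, HC5 replicate 3, the pool of lowest score, was set apart in 6 genes. It was lowest for F2r at 1.48, Lama5 at 4.99, Spred1 at -2.41, Pth1r at 0.0599 and Fgf4 at 1.99, and highest for Amhr2 at 0.68. HC5 replicate 4 was highest for Pou5f1 at 4.38, Hspg2 at 3.94 and Cdx2 at 6.13, and lowest for Xist at -0.45. Pdgfa was lowest in HC6 replicate 3 at 5.84, and Ccn2 was highest in HC2 replicate 2 at 2.53.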

How the results depend on the processing

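Of 38 alternatives for the count of called genes, 27 gave 0 like the reported fit and 11 gave calls. The count was 394 with the score as a continuous predictor, 48 with pools chosen by Lamb1, Lamc1, Col4a1 and Fn1, 19 with 3 groups on all arrays, 16 without the HC6 pools, 7 among probes well above background on all 16 arrays and 1 with slide as a random block. Leaving out each pool gave 0 to 10 calls, and 1788 to 3118 genes at an unadjusted p under 0.05. The replicate block gave 1 call, with 811 genes at an unadjusted p under 0.05, where 922 are given by chance. Same-numbered pools correlated between -0.32 and 0.33 over 60 pairs, with a median of 0.11 for number 1, -0.0043 for number 2, -0.03 for number 3 and -0.16 for number 4. The median was -0.0035 for pairs of different number and -0.09 for such pairs on the same slide. The numbers were not taken to pair the samples. Number 1, whose pools were all high and all on slide 1, had the highest median of the 4 numbers, so a shared deviation of those pools is not excluded. The F-test over conditions gave 0 to 1 calls when a pool was left out, the 1 without HC1 replicate 3, and 387 genes at an unadjusted p under 0.05 with all pools.

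Of 4013 values of 106 named genes, 3999 kept their direction. Most alternatives reuse the same arrays and nearly the same pools, and many of the genes were named for a small p in the reported fit. Agreement in direction was thus largely set beforehand and is no separate support. List members named only after their values were seen, such as Fgfr1, Sox2 and Krt8, are not among the 106. Without the pools numbered 1, an alternative chosen after seeing the data, the difference was 0.11 for Cdx2, -0.0032 for Hspg2, 0.0545 for Pecam1, -0.0148 for Pfkl and -0.0502 for Tcl1. With the replicate block it was 0.0696 for Cdx2, 0.0385 for Nanog and -0.0425 for Lrp2, and Nanog was at 0.0540 with pools chosen by Gata6, Sox7, Pdgfra and Dab2. Lrp2 was at -0.0088 after quantile normalization, -0.0223 after normexp and quantile normalization, -0.0237 in the authors' deposited table, -0.0017 with pools chosen anew and -0.0505 with the mean of probes. The 75th percentile differed by -0.0022 log2 with pools chosen by Gata6, Sox7, Pdgfra and Dab2, and by 0.43 with the matrix genes. The share of spots well above background differed by 0.0683 percentage points in 6 highest against 6 lowest pools and by 0.490 with the matrix genes. The cause of these changes was not tested.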
